A study of Mus musculus with 6 samples.

Results

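The genes of cholesterol synthesis, uptake and efflux were followed in pancreatic stellate cells (PSCs) kept at 21% O2 (normoxia) or 1% O2 (hypoxia). They are 35 genes chosen by name for their known roles, with earlier results of these data known. All 35 were found by symbol among the 55426 features of the expression table and passed the filter on low counts, which 16207 genes passed in all. PSCs are fibroblast-like cells of the pancreas that can give rise to cancer-associated fibroblasts. Those used here were primary C57BL/6 mouse cells at low passage, embedded in Matrigel in a transwell insert above organoids of mT3, a cell line from a mouse pancreatic ductal adenocarcinoma. Both groups shared the organoids, the medium and the 48 h of culture and, by the labels, differed in O2 alone, with 3 samples in each. The study followed whether low O2 changes the state of these fibroblasts, and the comparison here is the one of 1% with 21% O2 for each gene. Whether the 3 samples of a group came from separate PSC isolates is not given in the sources used here, so p-values measure the spread between these samples, which may be technical.

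Cells make cholesterol from acetyl-CoA through the mevalonate pathway, which leads to squalene, and then through the sterol steps, some of which consume molecular oxygen. Transcription of these enzymes is driven by SREBP2, the product of Srebf2. SCAP carries SREBP2 out of the endoplasmic reticulum for activation, and INSIG1 and INSIG2 hold SCAP back when sterols are plentiful. Cholesterol also enters by receptor-mediated uptake, is moved out of lysosomes by NPC1 and NPC2, is stored as esters made by SOAT1, and leaves through the transporters ABCA1 and ABCG1, whose genes are induced by the oxysterol-sensing liver X receptors (LXRs).

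Library totals ran from 24749601 to 25914892 counts at 21% O2 and from 25847719 to 31925054 at 1% O2. Levels are given in CPM, counts scaled to library size with edgeR's TMM factors, and a gene was called where its linear fold change was beyond 1.5 and its adjusted p was under 0.05 by edgeR's quasi-likelihood test. All 12 genes of a list of known hypoxia targets were called higher at 1% O2, from P4ha1, a collagen prolyl hydroxylase (log2 fold change 0.94, SE 0.064, adjusted p = 3.03e-06), to Car9, a carbonic anhydrase (log2 fold change 5.13, SE 0.11, adjusted p = 1.01e-08). Of 10 fibroblast markers, all were detected, with Col3a1 at the highest CPM, not scaled for length, 11150 ± 1151 and 12740 ± 1171 CPM (SD, n = 3 each). Of the 10, 2 were called higher, 1 lower and 7 neither, where 18.9% of all tested genes were called higher and 15.3% lower. Lum fell most (log2 fold change -2.17, SE 0.18, adjusted p = 1.18e-05), while Pdgfra and Pdpn, named after their values were seen, rose (log2 fold change 0.82 and 0.99). Of 6 epithelial markers, Epcam, Cdh1, Krt8 and Krt18 were under 0.1 CPM on average in both groups. Krt7 was at 0.693, 0.342 and 1.38 against 0.314, 0.925 and 0.754 CPM and was not called, and Krt19 rose from 1.04, 0.4555 and 0.649 to 20.6, 21.7 and 23.9 CPM (log2 fold change 4.94, SE 0.19, adjusted p = 1.3e-07). One library stood apart. The normoxic sample of replicate 2 had the highest level of the 3 normoxic samples for 18 of the 19 synthesis enzymes, against 43.1% of all tested genes and 58.7% of the genes called lower. It was also highest for the adipocyte markers Plin1 (179.6, 356 and 144 CPM in normoxic replicates 1 to 3) and Fabp4 (432, 1076 and 409.9 CPM) and for the summed macrophage markers. Calls of the cholesterol genes that change without this library are given both ways.

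The synthesis genes share a feature in their promoters that the choice of genes did not use. RefSeq promoter windows (GRCm38.p6, 250 bases before to 50 bases after a start site) were found for 29 of the 35 genes. The letters CCAAT, the box bound by NF-Y, a common partner of SREBPs, stood on either strand in 22 of these 29 genes, or 75.9%, against 41.1% of all 27025 genes with a window and 42.7% of the 11127 among them that were tested. Among the 16 synthesis enzymes with a window, 15 held it. The one without it was Acat2, which fell, and Ggps1, which was not called, held it. Genes with several start sites have several windows and so more room for a match. The match is printed for 7 enzymes that fell, with 10 bases on each side. It is the copy nearest to a RefSeq start site that has this margin before it. Each is read 5′ to 3′ on the strand that spells CCAAT, which is in capitals. The stretches of Idi1, Dhcr7, Cyp51 and Msmo1 lie inside the annotated genes, before a start site that is not the outermost annotated one. Of the 3 windows of Dhcr7, only the one whose stretch is printed held CCAAT.
Mvd, chr8:122443435-122443459, minus strand: ggccagcgggCCAATcatatggcag
Idi1, chr13:8885551-8885575, minus strand: cccgggctcgCCAATcagctggagg
Nsdhl, chrX:72918491-72918515, minus strand: atgattttgcCCAATgaggctagtc
Dhcr7, chr7:143830155-143830179, minus strand: tcacagacgaCCAATcggaagtgga
Cyp51, chr5:4104712-4104736, minus strand: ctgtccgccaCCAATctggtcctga
Msmo1, chr8:64733619-64733643, minus strand: gtggggcggaCCAATtacgacaggc
Sc5d, chr9:42264310-42264334, plus strand: aggcagccggCCAATcagcagccgg

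The letters TCACNCCAC, a form of the sterol regulatory element, were rarer. They stood in 1 of the 29 genes, Hmgcs1, against 1.44% of all genes with a window. The 150 bases before its start site are printed because they hold this element and a CCAAT box (ATTGG on the strand shown), both in capitals.
Hmgcs1, chr13:119690201-119690350, plus strand: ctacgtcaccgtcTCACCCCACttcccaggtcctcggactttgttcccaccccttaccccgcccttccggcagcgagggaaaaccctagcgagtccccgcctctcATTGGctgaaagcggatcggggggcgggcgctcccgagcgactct
The core letters of a HIF site, ACGTG and GCGTG, stood in 6 and 17 of the 29 genes, against 21.8% and 35.2% of all genes and 28.8% and 54.6% of tested genes with a window. The paralogs Insig1 and Insig2, which moved in opposite directions, both held such letters. Bases before a start site that no annotated exon covers are printed for both, with the CCAAT and HIF core letters on either strand in capitals. Neighbouring copies can overlap, as where both strands of CACGTG are counted. Of the start sites of Insig2, the one farthest upstream is shown first.
Insig1, chr5:28071213-28071362, plus strand: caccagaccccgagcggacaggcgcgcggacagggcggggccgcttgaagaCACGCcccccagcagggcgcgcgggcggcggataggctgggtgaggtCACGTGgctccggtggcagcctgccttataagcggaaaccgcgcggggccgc
Insig2, chr1:121332590-121332739, minus strand: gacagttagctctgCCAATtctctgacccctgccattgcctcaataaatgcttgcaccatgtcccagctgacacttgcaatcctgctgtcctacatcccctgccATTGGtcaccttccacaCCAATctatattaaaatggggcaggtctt
Insig2, chr1:121328025-121328091, minus strand: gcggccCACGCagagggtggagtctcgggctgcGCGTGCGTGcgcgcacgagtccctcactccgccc
The consensus LXR-type direct repeat with a spacer (DR4), searched in full on both strands, stood in 0 of the 29 genes and in 0.0148% of all genes. Letters that match are not a bound site, and absent letters say only that they are not in these windows.

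The mevalonate arm fell nearly as a whole. Of its 8 genes, 7 were called lower at 1% O2 and 0 higher, where 15.3% of all tested genes were called lower and 18.9% higher. The median log2 fold change of the 8 was -1.66, and that of all tested genes 0.00. Acat2, the cytosolic thiolase that starts the pathway by joining acetyl groups, was at 65.7, 102 and 69.9 CPM in normoxic and 26.4, 26.2 and 31.05 CPM in hypoxic PSCs (log2 fold change -1.50, SE 0.16, adjusted p = 4.11e-05). Hmgcs1, the HMG-CoA synthase (ENSMUSG00000093930; plus strand of chromosome 13 from 119690379 to 119708260), was at 184.5, 238 and 187 CPM against 57.7, 61.9 and 62.7 CPM. Every hypoxic sample thus lay below every normoxic sample, with a 3.34-fold lower level (log2 fold change -1.74, SE 0.099, adjusted p = 1.07e-06).

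The next enzymes phosphorylate and decarboxylate mevalonate. Mvk, mevalonate kinase, went from 30.9, 39.6 and 33.0 to 12.8, 11.4 and 14.1 CPM, a 2.70-fold fall. Pmvk, phosphomevalonate kinase, went from 17.4, 31.4 and 22.1 to 7.30, 8.17 and 8.265 CPM (log2 fold change -1.58, SE 0.19, adjusted p = 0.000111). Mvd, the decarboxylase, was at 33.65, 44.8 and 34.85 CPM in normoxia and at 11.03, 11.4 and 11.03 CPM in hypoxia (log2 fold change -1.76, SE 0.11, adjusted p = 2.07e-06). In these 3 genes the groups did not overlap, and replicate 2 was the highest normoxic sample. Idi1, the isomerase of the isoprene units (ENSMUSG00000058258; plus strand of chromosome 13 from 8885501 to 8892451), had the largest change of the arm, from 59.0, 76.9 and 66.4 to 16.45, 16.7 and 18.9 CPM, or 3.88-fold (log2 fold change -1.96, SE 0.10, adjusted p = 6.89e-07). Fdps, which makes farnesyl diphosphate, the branch point between sterols and other isoprenoids, went from 112, 160.1 and 126 to 35.15, 34.3 and 36.7 CPM (log2 fold change -1.91, SE 0.12, adjusted p = 1.86e-06). An annotated gene on the same strand, Gm43738, covers 1124 of the 4208 exonic bases of Fdps, so some of its reads could be shared. Ggps1 stood apart from the arm. It makes geranylgeranyl diphosphate for protein prenylation and leads away from sterols. Its level was 46.6, 39.9 and 39.6 CPM in normoxic and 42.45, 43.0 and 41.9 CPM in hypoxic samples, and the groups overlapped (log2 fold change 0.01, SE 0.071, adjusted p = 0.868).

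The sterol steps that use no oxygen fell in every gene listed. Of 7 genes, 7 were called lower, against 15.3% of all tested genes, with a median log2 fold change of -1.22. Fdft1, squalene synthase, the first enzyme committed to sterols, was at 63.6, 75.1 and 71.8 CPM in normoxia and 30.3, 32.3 and 32.8 CPM in hypoxia (log2 fold change -1.14, SE 0.072, adjusted p = 1.98e-06). Lss, which closes the rings to lanosterol, went from 60.2, 90.3 and 68.4 to 36.2, 35.3 and 37.0 CPM (log2 fold change -1.01, SE 0.13, adjusted p = 0.000136), the smallest change of the enzymes that fell. Without the normoxic sample of replicate 2 its log2 fold change was -0.84, and it was still called. Tm7sf2, a sterol C14 reductase, went from 15.8, 27.2 and 21.1 to 10.2, 9.00 and 10.15 CPM (log2 fold change -1.13, SE 0.18, adjusted p = 0.000463); Vps51 covers 532 of its 4403 exonic bases on the same strand.

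Nsdhl and Hsd17b7 take part in removing methyl groups at carbon C4 of the sterol. Nsdhl (ENSMUSG00000031349; plus strand of chromosome X from 72918557 to 72958514) fell from 47.1, 66.9 and 53.7 to 14.45, 12.8 and 12.8 CPM, or 4.195-fold (log2 fold change -2.07, SE 0.13, adjusted p = 1.64e-06). Hsd17b7 fell from 69.6, 90.4 and 73.8 to 22.15, 22.6 and 24.6 CPM (log2 fold change -1.75, SE 0.10, adjusted p = 1.1e-06). In both, the lowest normoxic sample was well above the highest hypoxic one. Ebp, the sterol isomerase, had the tightest hypoxic values, 10.8, 10.7 and 10.65 CPM, against 22.2, 27.4 and 25.4 CPM at 21% O2 (log2 fold change -1.22, SE 0.092, adjusted p = 5.47e-06). Dhcr7, the reductase that converts 7-dehydrocholesterol to cholesterol (ENSMUSG00000058454; plus strand of chromosome 7 from 143823145 to 143848410), had the lowest log2 fold change of the 35 genes. Its level was 29.7, 43.7 and 31.6 CPM in normoxic and 8.13, 8.58 and 7.79 CPM in hypoxic PSCs, a 4.285-fold difference (log2 fold change -2.10, SE 0.15, adjusted p = 3.57e-06).

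The 4 enzymes that consume molecular oxygen were called lower as well, with log2 fold changes from -1.52 to -1.08 and a median of -1.33. This range lies inside that of the 7 sterol enzymes that use none, and the difference between the groups of enzymes was not tested. Sqle, squalene epoxidase, which adds the first oxygen atom (ENSMUSG00000022351; plus strand of chromosome 15 from 59315077 to 59331192), was at 115, 137 and 131 CPM in normoxia and 57.45, 60.9 and 63.1 CPM in hypoxia, a 2.11-fold fall (log2 fold change -1.08, SE 0.073, adjusted p = 3.03e-06). Cyp51, the lanosterol demethylase (ENSMUSG00000001467; minus strand of chromosome 5 from 4081145 to 4104746), went from 136, 153 and 151 to 50.8, 49.4 and 53.6 CPM (log2 fold change -1.52, SE 0.064, adjusted p = 1.92e-07) and had the lowest adjusted p of the 35 genes. In neither gene did the groups come near an overlap. Msmo1, the C4 methyl oxidase, went from 70.8, 83.4 and 77.1 to 27.6, 28.85 and 31.1 CPM (log2 fold change -1.40, SE 0.076, adjusted p = 8.09e-07). Sc5d, the sterol C5 desaturase, went from 72.2, 90.1 and 74.2 to 32.4, 32.3 and 34.6 CPM (log2 fold change -1.25, SE 0.088, adjusted p = 3.73e-06).

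**Figure D1:**
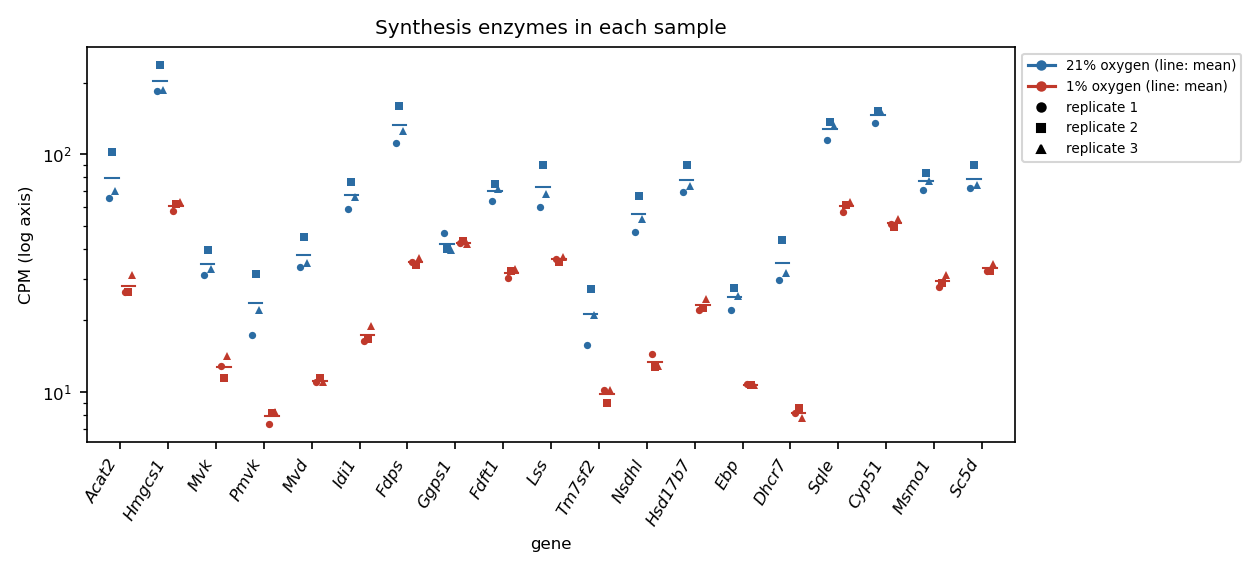
CPM on a log axis of the 19 synthesis enzymes in pathway order in the 3 samples at 21% O2 (blue) and the 3 at 1% O2 (red), with marker shapes for replicates 1 to 3 and lines at the means. In 18 genes all red points lie below all blue points, and in Ggps1 the groups overlap.

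Over the 19 enzymes together, 18 were called lower and their groups did not overlap, where 34% of all tested genes had every hypoxic sample below every normoxic one. Their summed level was 1252, 1617 and 1358 CPM in normoxic replicates 1 to 3 and 509.8, 516 and 543 CPM in the hypoxic ones. The hypoxic sums thus lay within a narrow band, and the normoxic ones were spread upward by replicate 2. The coefficient of variation of the enzymes had a median of 14.1% at 21% O2 and 4.69% at 1% O2, while over all tested genes it was 8.76% and 6.95%. All 18 were called lower without that sample too, with log2 fold changes from -1.92 to -0.84. In bulk RNA, fewer cells of a type and less RNA per cell cannot be told apart.

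The regulators of SREBP moved in different directions. Of the 4, Srebf2 and Insig1 were called lower, Insig2 was called higher, and Scap was not called, where 34.2% of all tested genes were called. Srebf2, which encodes SREBP2 and is itself one of its targets (ENSMUSG00000022463; plus strand of chromosome 15 from 82147181 to 82205379), was at 217, 215 and 230.4 CPM in normoxic and 143, 146 and 141 CPM in hypoxic samples. Its fold change of 1.54 was just past the threshold (log2 fold change -0.62, SE 0.052, adjusted p = 1.09e-05). Scap was at 76.3, 77.3 and 83.1 CPM and 73.2, 70.3 and 70.15 CPM, a 1.11-fold difference with groups that did not overlap (log2 fold change -0.15, SE 0.055, adjusted p = 0.04). Insig1, which encodes a SCAP-retaining protein and is itself an SREBP target (ENSMUSG00000045294; plus strand of chromosome 5 from 28071363 to 28078662), fell from 238, 395 and 269 to 63.5, 79.8 and 76.5 CPM, or 4.10-fold (log2 fold change -2.03, SE 0.18, adjusted p = 1.32e-05). Across the fits that left out 1 library its log2 fold change was -2.18 to -1.79, and it was closest to 0 without the normoxic sample of replicate 2.

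Insig2, whose transcription is known to be less dependent on SREBP, rose (ENSMUSG00000003721; minus strand of chromosome 1 from 121304353 to 121332589). It was at 40.15, 38.3 and 38.5 CPM in normoxia and 71.4, 78.15 and 71.75 CPM in hypoxia, a 1.89-fold increase with tight replicates (log2 fold change 0.92, SE 0.058, adjusted p = 1.88e-06). Levels of both genes were compared per length, as CPM per kilobase of merged exons. On that scale the ratio of Insig1 to Insig2 was 6.655, 11.6 and 7.84 in normoxic samples and 0.998, 1.15 and 1.20 in hypoxic ones. The Insig1 level was thus 8.695 ± 2.57 times that of Insig2 at 21% O2 and 1.11 ± 0.103 times at 1% O2 (SD, n = 3 each; exact two-sided permutation p = 0.1, the smallest that 3 against 3 samples allow). With the longest transcript as the length, the ratios were 7.74 and 0.992.

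**Figure D2:**
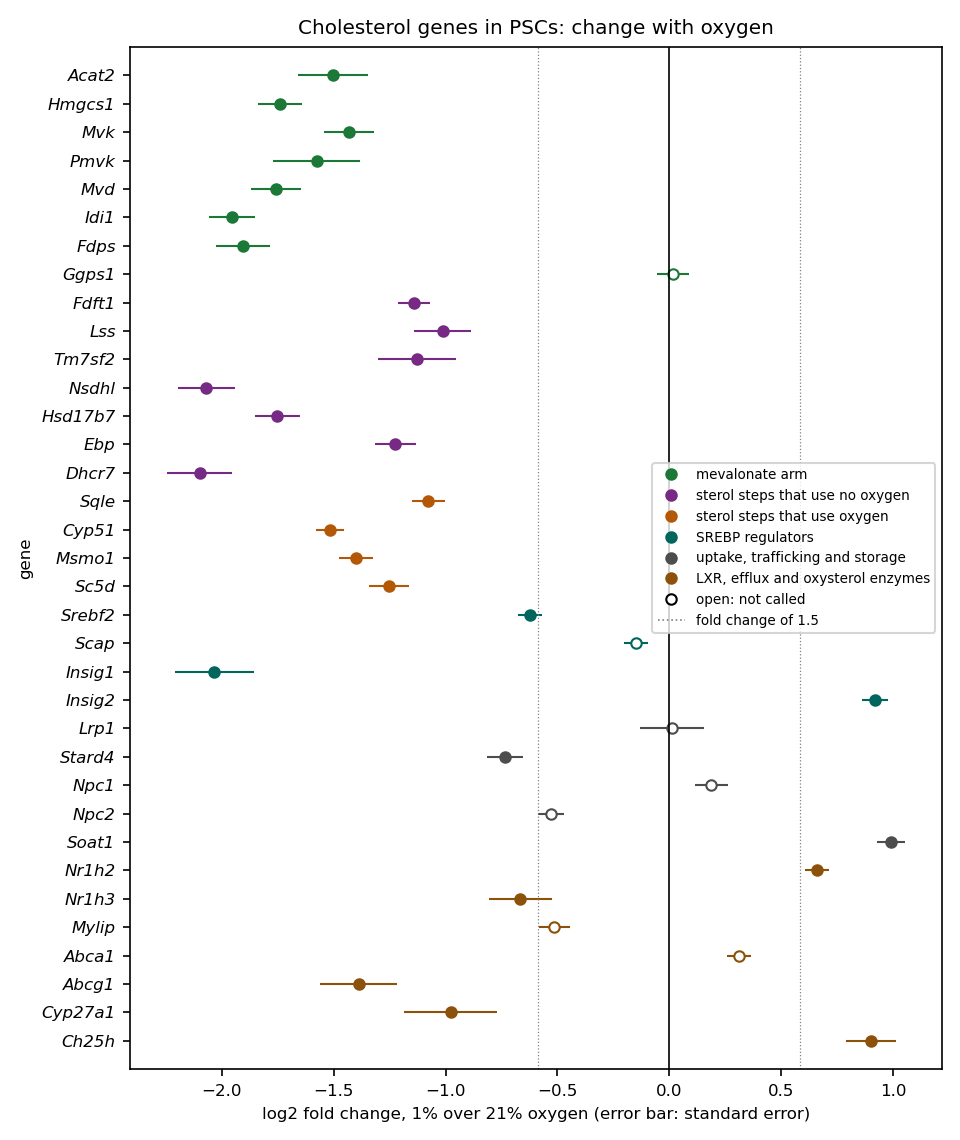
Log2 fold change (1% over 21% O2) of the 35 genes with standard errors from edgeR, coloured by step, filled where the gene was called and open where it was not, with dotted lines at a fold change of 1.5. The synthesis enzymes lie between -2.10 and -1.01 apart from Ggps1, and 4 genes, Insig2, Soat1, Nr1h2 and Ch25h, lie right of the upper line.

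Genes of uptake, trafficking and storage showed no common direction: of 5, Soat1 was called higher, Stard4 lower, and Lrp1, Npc1 and Npc2 were not called. These calls are to be read against the 34.2% of all tested genes that were called in either direction. Lrp1, a large endocytic receptor for lipoproteins among many ligands, was at 3085, 2080 and 3184 CPM in normoxia and 2793, 2889 and 2737 CPM in hypoxia. The normoxic sample of replicate 2 was the lowest of all 6 (log2 fold change 0.01, SE 0.14, adjusted p = 0.945). Without that sample its log2 fold change was -0.17 (adjusted p = 0.0462) and its log2 fold change also turned negative without the hypoxic sample of replicate 2, with upper-quartile scaling and without a filter, so no direction can be given. Stard4, a cytosolic sterol carrier, fell from 38.6, 44.6 and 41.6 to 23.1, 24.7 and 27.2 CPM (log2 fold change -0.73, SE 0.081, adjusted p = 5.49e-05). Npc1, the lysosomal membrane exporter, was at 93.7, 82.5 and 100.2 CPM and 107.5, 107 and 100.2 CPM, with groups that met at one value (log2 fold change 0.19, SE 0.074, adjusted p = 0.0506). Npc2, its soluble partner in the lysosome lumen, was at 884.5, 920.4 and 909 CPM in normoxia and 615, 657 and 611 CPM in hypoxia. Its groups did not overlap, but the 1.44-fold difference was under the threshold (log2 fold change -0.53, SE 0.059, adjusted p = 5.84e-05). Soat1, which esterifies cholesterol for storage (ENSMUSG00000026600; minus strand of chromosome 1 from 156424525 to 156474331), rose from 103.5, 90.1 and 92.5 to 189, 192 and 188 CPM, or 1.99-fold, the highest log2 fold change of the 35 genes (log2 fold change 0.99, SE 0.062, adjusted p = 1.9e-06).

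Of the 7 genes of LXR signalling, efflux and oxysterol synthesis, 2 were called higher and 3 lower. The shares over all tested genes were 18.9% higher and 15.3% lower. The LXR genes diverged. Nr1h2, which encodes the broadly expressed LXR beta, was at 74.5, 77.2 and 80.9 CPM in normoxic and 120.1, 124 and 124 CPM in hypoxic PSCs, a 1.58-fold rise (log2 fold change 0.66, SE 0.052, adjusted p = 7.61e-06). Nr1h3, which encodes LXR alpha, fell from 31.1, 43.9 and 31.85 to 19.9, 25.7 and 21.7 CPM (log2 fold change -0.67, SE 0.14, adjusted p = 0.00291). This call was lost without the normoxic sample of replicate 2, where the log2 fold change was -0.49 (adjusted p = 0.00247, under a fold of 1.5). Per length, the ratio of Nr1h2 to Nr1h3 was 1.67 ± 0.312 at 21% O2 and 4.14 ± 0.467 at 1% O2 (SD, n = 3 each, exact permutation p = 0.1). With the longest transcript as the length, it was 2.22 and 5.48.

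The efflux transporters, both known LXR targets, also differed. Abca1, which loads cholesterol onto lipid-poor apolipoproteins (ENSMUSG00000015243; minus strand of chromosome 4 from 53030787 to 53159895), was at 133, 121 and 123 CPM in normoxia and 155, 158 and 154 CPM in hypoxia. Every hypoxic sample was above every normoxic one, and the 1.24-fold difference was under the threshold (log2 fold change 0.31, SE 0.054, adjusted p = 0.000902). Abcg1, which passes cholesterol to mature lipoproteins (ENSMUSG00000024030; plus strand of chromosome 17 from 31057675 to 31117988), fell from 39.15, 54.3 and 38.5 to 20.85, 13.6 and 16.25 CPM, or 2.62-fold (log2 fold change -1.39, SE 0.17, adjusted p = 0.000115). Their ratio per length, Abca1 over Abcg1, was 2.06 ± 0.437 at 21% O2 and 6.70 ± 1.48 at 1% O2 (SD, n = 3 each, exact permutation p = 0.1). With the longest transcript as the length, it was 1.666 and 5.41. Mylip, the LXR-induced ubiquitin ligase that degrades lipoprotein receptors, was at 31.5, 34.1 and 32.9 CPM and 24.15, 23.4 and 21.5 CPM (log2 fold change -0.51, SE 0.068, adjusted p = 0.00018). Neither Abca1 nor Mylip was called, and of these 3 known LXR targets only Abcg1 was.

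Both oxysterol-making enzymes use oxygen and moved apart. Ch25h, cholesterol 25-hydroxylase, whose product holds SREBP in check and activates LXRs (ENSMUSG00000050370; minus strand of chromosome 19 from 34473778 to 34475164), rose from 38.2, 39.7 and 42.8 to 60.7, 83.9 and 80.6 CPM (log2 fold change 0.90, SE 0.11, adjusted p = 0.000127). Cyp27a1, the mitochondrial sterol 27-hydroxylase, had the fewest counts of the 35 genes and fell from 4.004, 5.96 and 5.40 to 3.22, 2.425 and 2.20 CPM (log2 fold change -0.98, SE 0.21, adjusted p = 0.00288). Exons of Ch25h and of 8 other genes of the 35 overlap antisense genes, and the strand setting of the counting is not given in the sources used here.

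**Figure D3:**
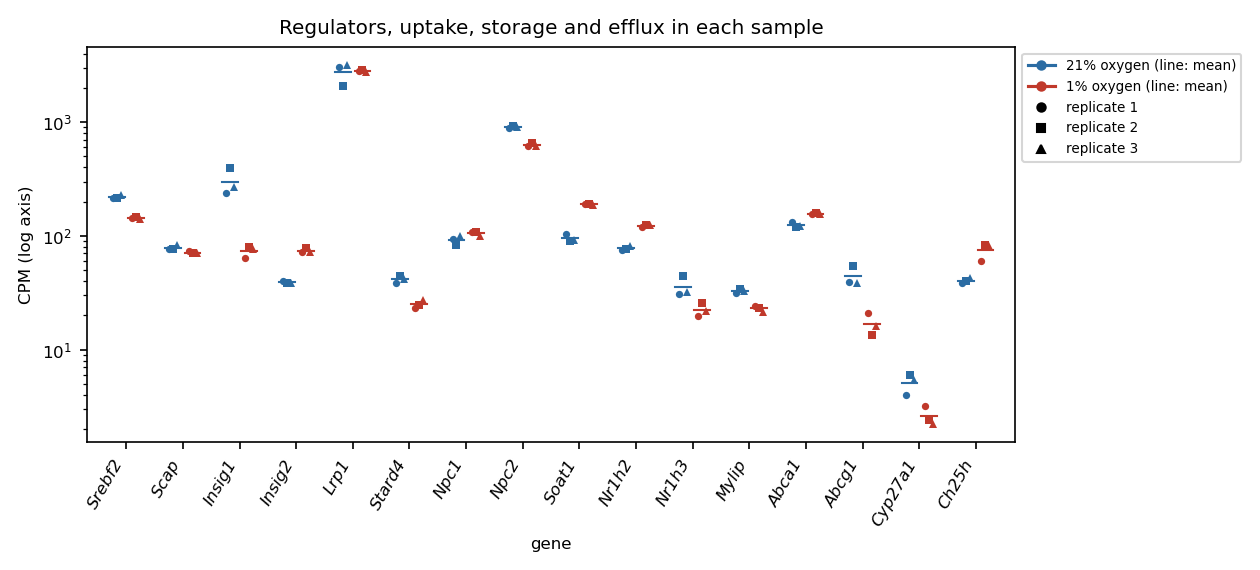
CPM on a log axis of the 16 genes outside synthesis in each sample at 21% O2 (blue) and 1% O2 (red), with marker shapes for replicates and lines at the means. Insig1 and Abcg1 are lower and Insig2, Soat1, Nr1h2 and Ch25h higher in every hypoxic sample, while the groups of Lrp1 and Npc1 overlap.

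Across all 35 genes, 24 were called lower, 4 higher and 7 were not called, a share of calls to be read against the 34.2% of all tested genes that were called in either direction. In 32 of the 35 the groups did not overlap, against 68.9% of all tested genes. The median log2 fold change was -1.13 over the 35 genes. Of the 35, 34 kept their call in all 14 refits, which changed the normalization, filter, tool or block or left out a library, and Nr1h3 was the exception.

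Other genes of the pathway came from a separate list. Of 56 symbols, 55 were found and 54 tested, of which 8 were called higher, 6 lower and 40 neither, where 18.9% of all tested genes were called higher and 15.3% lower. The median log2 fold change of the list was -0.05. Its higher calls numbered 6 to 8 and its lower calls 6 to 7 over the 14 refits. The list included 2 genes that act in the sterol steps, of which Erg28, a scaffold of the C4 demethylation complex, was called lower (29.6, 31.3 and 30.9 against 14.4, 15.0 and 15.5 CPM, log2 fold change -1.03, SE 0.065, adjusted p = 1.98e-06), and Lbr, a sterol C14 reductase named after its values were seen, was not called (21.8, 24.9 and 24.1 against 22.5, 24.6 and 24.45 CPM, log2 fold change 0.02, SE 0.075, adjusted p = 0.845). Lower as well was Acat1, the mitochondrial acetoacetyl-CoA thiolase of ketone body and isoleucine metabolism (115, 145 and 106 against 51.7, 47.3 and 47.0 CPM, log2 fold change -1.33, SE 0.11, adjusted p = 8.63e-06). Lower too were Cd36, a scavenger receptor (61.1, 149 and 62.5 against 10.1, 20.55 and 12.95 CPM, log2 fold change -2.64, SE 0.38, adjusted p = 0.00029), and Lpcat3, an LXR-induced phospholipid enzyme (51.7, 69.15 and 59.0 against 29.3, 29.6 and 30.3 CPM, log2 fold change -1.01, SE 0.097, adjusted p = 2.37e-05). The normoxic values of Cd36 were uneven, with replicate 2 far above the others. The other two that fell were Rxra, the partner receptor of the LXRs (log2 fold change -0.88), and Nceh1, which hydrolyses cholesterol esters (log2 fold change -0.72). Vldlr, a lipoprotein receptor and known hypoxia target, rose most, from 95.7, 79.9 and 101 to 374, 363 and 375 CPM (log2 fold change 2.01, SE 0.085, adjusted p = 2.07e-07). Gramd1b and Gramd1a, which carry cholesterol from the plasma membrane to the endoplasmic reticulum, rose from 29.3, 25.1 and 28.3 to 86.4, 92.6 and 91.1 CPM and from 80.3, 111 and 90.5 to 167, 167.5 and 184 CPM (log2 fold change 1.71, SE 0.069, adjusted p = 1.51e-07, and log2 fold change 0.88, SE 0.11, adjusted p = 9.42e-05). Abca5, a lysosomal lipid transporter, rose from 11.9, 9.07 and 11.2 to 22.3, 22.7 and 24.2 CPM (log2 fold change 1.11, SE 0.10, adjusted p = 2.05e-05). The others called higher were Abca2 (0.70), Arl4c (0.68), Abca7 (0.62) and Gramd1c (0.61 on the log2 scale).

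Macrophages and adipocytes are lipid-handling cells that express many genes of efflux and storage, and markers of both fell with hypoxia. Of 12 macrophage markers, none was at 0. Against 15.3% lower and 18.9% higher of all tested genes, 8 of the markers were called lower and 0 higher. Their summed level was 988, 1764 and 1375 CPM in normoxic replicates 1 to 3 and 493, 889.8 and 601 CPM in hypoxic ones, most of it Lyz2 (653, 1164 and 883 against 315, 546 and 378 CPM), and Tyrobp fell most (log2 fold change -1.35, SE 0.26, adjusted p = 0.00156). Nr1h3 had the order of samples of the macrophage sum in both groups, replicate 2 highest and replicate 1 lowest. Abcg1 did not: among hypoxic samples replicate 2 had the highest macrophage sum and the lowest Abcg1. Soat1, Abca1 and Ch25h were higher in the hypoxic samples, in which the macrophage sum was lower. Among hypoxic samples each of these genes was highest in replicate 2, as the macrophage sum was, and Ch25h had its full order. Among normoxic samples none of these genes was highest in replicate 2. Of 6 adipocyte markers, 5 could be tested and all 5 were called lower, or 4 without the normoxic sample of replicate 2, with Lep at 0 in every sample. Their sums, 5676, 6809 and 5151 CPM against 3187, 3491 and 3212 CPM, were mostly Lpl (log2 fold change -0.62, SE 0.081, adjusted p = 0.00016). Cidec, the most changed by the fit, was at 106, 303 and 91 counts in normoxic and 1, 3 and 4 counts in hypoxic samples, at or near the floor of 3 counts, so no fold is given. Plin1 went from 179.6, 356 and 144 to 7.15, 11.8 and 7.10 CPM. The part of these cell types or programs in the changes of the cholesterol genes was not tested. Of 4 endothelial markers, Tek was called higher, at 5.54, 4.555 and 5.315 against 9.385, 14.5 and 10.5 CPM, and 1, Kdr, named after its values were seen, was called lower (log2 fold change -0.76, SE 0.29, adjusted p = 0.0428), a call lost with the replicate block. Of 3 mesothelial markers only Wt1 passed the filter, at 25.6, 19.4 and 27.75 against 40.6, 41.6 and 41.3 CPM, and it was called higher.

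**Figure D4:**
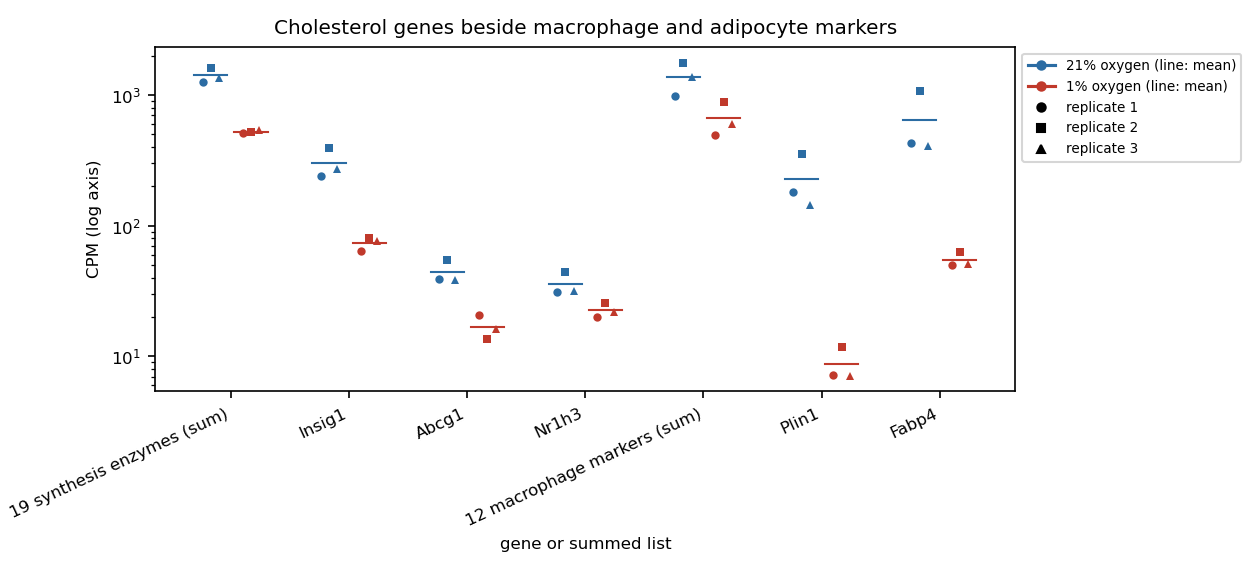
CPM on a log axis of the summed synthesis enzymes, Insig1, Abcg1, Nr1h3, the summed macrophage markers and the adipocyte genes Plin1 and Fabp4 in each sample, blue at 21% and red at 1% O2. The normoxic sample of replicate 2 (blue squares) is the highest point of every column, and in the hypoxic samples the synthesis sum is nearly flat while the macrophage sum spreads from 493 to 889.8 CPM.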

How the data were processed

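RNA of 6 PSC samples, 3 at 21% O2 and 3 at 1% O2, was analysed from a table of expected counts. The authors deposited these estimated counts per gene, not normalized between samples, after mapping reads of poly(A) libraries to GRCm38 with STAR (2.6.1b) and assigning them with RSEM (1.3.1), versions as the submitters' processing notes give them. The annotation release and strand setting are not given in the sources used here. All values were whole numbers, and RSEM divides reads that fit several genes by an estimate. Of the 55426 features, 55240 were named from GENCODE M21, whose coordinates (GRCm38) are printed.

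In edgeR (4.0.16; limma 3.58.1, R 4.3.3), genes were filtered with filterByExpr, scaled by TMM and compared with the quasi-likelihood F test and Benjamini-Hochberg adjustment over 16207 genes. SE is the log2 fold change divided by the square root of F. A count of 3, the smallest taken as present, is 0.0943 to 0.122 CPM, counting error only. Alternatives were a replicate block, other scalings and filters, DESeq2 (1.42.0), limma-voom, other fold thresholds and each library left out. Replicate pairs differed by 5.68 to 22.5 chi-square per degree of freedom. The sources used here do not say whether same-numbered samples are pairs, so they were not treated as pairs. Their deviations from group means correlated by 0.142, 0.139 and 0.0378.

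The genes and lists were chosen with earlier results of these data known. Named are all 35 genes, the 4 highest and 4 lowest called genes of the further pathway list, and the most abundant and most changed marker of each list. The other called genes of that list, Lbr, Pdgfra, Pdpn, Plin1, Fabp4, Lep, Kdr and the other epithelial markers were named after their values were seen.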

Additional observations from a re-analysis of the deposited data

How the results depend on the processing

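Of the values recomputed under the alternatives, 34 of 35 genes kept their call in all 14 refits. Without a fold threshold, 5150 genes of the whole table were higher and 5018 lower, against 3068 and 2479. At a fold of 2 there were 1929 and 1227, and of the 35 genes 0 were called higher, which holds for the regulators, uptake and storage, and LXR and efflux genes alike. At that fold 1 regulator, 0 uptake and storage genes and 1 gene of LXR, efflux and oxysterols were called lower. Without a fold threshold 2 uptake and storage genes were lower (Npc2 joins Stard4), and of the further pathway genes 16 were higher and 16 lower, while at a fold of 2 only 3 were higher. Fibroblast markers were then 4 higher and 4 lower without a threshold and 0 higher at a fold of 2, and mesothelial markers 0 higher. The 1 endothelial marker called lower was at 0 calls with the replicate block in edgeR and in DESeq2 and at a fold of 2. With a library left out, endothelial calls lower ranged from 0 to 1, fibroblast calls lower from 1 to 2 and mesothelial calls lower from 0 to 1. The median log2 fold change of the mevalonate arm ranged from -1.785 to -1.472 with a library left out and that of uptake and storage from -0.17 to 0.11. The median over all tested genes was -0.0276 with upper-quartile scaling and 0.0544 without a filter. Ggps1 and Lrp1, near 0, changed sign: Ggps1 was at -0.0085 and Lrp1 at -0.0113 with upper-quartile scaling, and at -0.0084 and -0.0103 without a filter. With a library left out, Ggps1 ranged from -0.0328 to 0.0911 and Lrp1 from -0.17 to 0.11. A fit with the replicate block had 3072 higher and 2500 lower calls over all genes, and of the 35 genes 4 higher and 24 lower. The block changed no call of the 35 genes, and every sample correlated best with its own number, a hint from the data and not from the design. With the longest transcript as length, 54 of 70 levels per kilobase moved by more than their replicate SD. The causes of these shifts were not tested. Depth was thinnest for Cyp27a1, at 104, 157, 133 and 82, 76, 70 counts in the 2 groups.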

Other observations

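Enzymes that use the products of the mevalonate arm for purposes other than sterols were in the list of further pathway genes and were picked out after their values were seen. Fnta and Fntb, the subunits of protein farnesyltransferase, had log2 fold changes of -0.13 (SE 0.063) and 0.04 (SE 0.083). Pggt1b, a subunit of the enzyme that attaches geranylgeranyl groups, was at 44.3, 41.3 and 41.4 CPM in normoxic and 33.6, 32.9 and 32.8 CPM in hypoxic samples (log2 fold change -0.36, SE 0.056, adjusted p = 0.000493). Dhdds and Nus1, which make the dolichol chain, had log2 fold changes of -0.07 and 0.10, and Pdss1 and Pdss2, which make the side chain of ubiquinone, of -0.42 and -0.13. Ggps1, described above with the mevalonate arm, had 0.01. Whether these genes differ from the sterol enzymes as a group was not tested.

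The proteins that process SREBPs or degrade sterol enzymes were likewise picked out after their values were seen. Mbtps1 and Mbtps2, the proteases that release SREBPs, had log2 fold changes of -0.29 and 0.08. The ubiquitin ligase genes Rnf139 and Rnf145 had -0.43 and 0.27, and neither was past a fold of 1.5. Syvn1, another ligase of the endoplasmic reticulum, was at 64.4, 63.9 and 61.2 CPM in normoxia and 93.7, 91.4 and 89.2 CPM in hypoxia, under the fold threshold (log2 fold change 0.53, SE 0.051, adjusted p = 2.26e-05).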
